A study of Homo sapiens with 30 samples.

Results

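The 24 h response to wild type p53 was measured in H1299 cells as the difference between cells that carried a vector for wild type p53 and GFP and cells that carried pGFP, which holds the GFP coding sequence alone. By their labels, 6 of the 30 libraries of the series belong to this comparison, with 3 replicates in each group. All genes entered it, whether they rose or fell. H1299 is a human lung carcinoma line that lacks p53, used here between passages 7 and 12 as transiently transfected pools and not as clones. Every vector of the study drives its genes from TRE-tight promoters. GFP-positive cells were sorted by flow cytometry before total RNA was prepared, so that both groups had been transfected and sorted alike, and neither received *O*6-bzG. The other groups used below are RW mutant p53 at 24 h, a mutant altered in the DNA binding domain and expressed from the same kind of vector, and the wild type p53 and pGFP groups at 6 h.

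p53 is a transcription factor that binds DNA as a tetramer and switches on genes for growth arrest, cell death, DNA repair, metabolism and its own degradation. Cells with active p53 also lower many genes of DNA replication and mitosis. This is known to run largely through the CDK inhibitor p21, which keeps the RB family of proteins unphosphorylated so that they hold E2F target genes, and the genes with a CHR element, in a repressed state. Because p53 in H1299 comes only from the vector, the pGFP cells give the state without p53.

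The 6 libraries held between 32302699 and 45631412 reads counted on genes. Levels are given as CPM, the counts scaled to library size with edgeR's TMM factors, and are compared between libraries for the same gene and not between genes. Fold changes are log2 values fitted by edgeR with their standard error (SE). Adjusted *P* values are those of the quasi-likelihood test in edgeR, adjusted by Benjamini-Hochberg over the 21335 genes tested. A gene is said to have risen or fallen when its adjusted *P* is below 0.05, and is called a DEG when it also changed at least 2-fold. Mesenchymal *VIM* was at 1945, 2669 and 2723 CPM with pGFP and at 2783, 3095 and 3358 CPM with wild type p53, a rise (adjusted *P* = 0.034) that was lost in 7 of the alternatives. Epithelial *CDH1* had 0 to 6 counts per library, the leukocyte gene *PTPRC* 0 to 2 and the endothelial gene *CDH5* 0 to 2. Of 8 tested markers of blood, endothelium and fibroblasts, *VWF* rose from 0.208 to 0.267 CPM with pGFP to 0.653 to 0.995 CPM, and *COL1A1* fell (log2 fold change -1.53, SE 0.31, adjusted *P* = 0.00037). Of 12 tested identity genes of H1299 2 rose and 1 fell. The rises numbered 5 with the replicate number as a block, 0 without a filter on low counts, and 1 without pGFP replicate 1 or without wild type replicate 1 or 2.

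Wild type p53 gave 2392 DEGs at 24 h, of which 1967 were higher and 425 lower than with pGFP. These are 9.22% and 1.99% of all genes tested, which are the backgrounds for the counts of DEGs in each list below. At any fold 4369 genes rose (20.5%) and 3098 fell (14.5%), and the median change over all genes was 0.01 on the log2 scale. Together the DEGs are 11.2% of the genes tested, and 35% changed at any fold. Rises were also larger than falls. The median DEG that was higher had a log2 fold change of 1.81, and the median DEG that was lower had -1.27. At least 4-fold changes were seen for 856 rises and 38 falls. In 263 of the higher DEGs no pGFP library had more than 3 counts, so their fitted folds are not bounds. With those genes set to the fold against 3 counts per library, the median was 1.73 and 768 rises reached 4-fold.

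**Figure D1:**
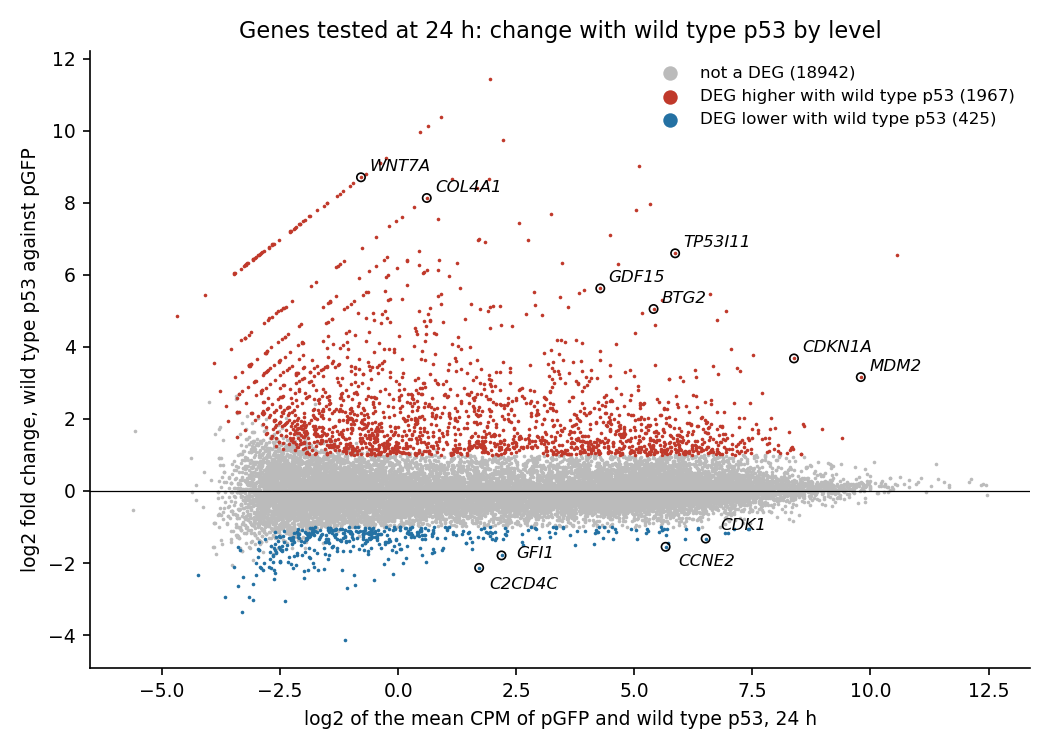
Change with wild type p53 at 24 h by level. Each point is a tested gene with a count in at least 1 of the 6 libraries, with the log2 of the mean CPM of both groups on the x axis and the fitted log2 fold change of wild type p53 against pGFP on the y axis. The 1967 higher DEGs (red) reach much further from 0 than the 425 lower DEGs (blue), and circles mark genes described in the text.

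The libraries behind most DEGs did not overlap. All 3 wild type libraries were above all 3 pGFP libraries for 1919 of the 1967 higher DEGs and below them for 404 of the 425 lower DEGs. Over all genes tested, such a separation was found upwards for 23.9% and downwards for 19.7%. Libraries with the same replicate number were also compared as pairs. In 1960 of the higher and 423 of the lower DEGs all 3 pairs had the direction of the fit. The DEGs were called on these same libraries, so this count is not independent of the call. The size differed between pairs: the median difference of the higher DEGs on the log2(CPM + 0.5) scale was 1.36 in pair 1, 1.19 in pair 2 and 0.96 in pair 3, and that of the lower DEGs was -0.82, -0.62 and -0.59. Mitochondrial transcripts took 0.577% to 1.116% of the counts with wild type p53 and 0.609% to 0.725% with pGFP (exact permutation *P* = 0.4, two-sided, where 0.1 is the smallest that 3 against 3 libraries allow). The shares of ribosomal protein genes overlapped too (exact permutation *P* = 0.2). The 10 most counted genes took 4.668% to 4.761% with wild type p53 and 4.42% to 4.55% with pGFP, without overlap (exact permutation *P* = 0.1). TMM factors did not overlap either, at 1.0078 to 1.033 with wild type p53 and 1.088 to 1.1599 with pGFP. The part of these differences in the results was not tested.

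The share of DEGs differed between levels without p53, in part because of the filter on low counts. Of the 684 genes with a mean below 0.1 CPM with pGFP, 58.9% were higher DEGs. From 1 to 10 CPM the share was 10.2%, and above 100 CPM it was 1.34%, or 30 of 2240 genes. Of those under 0.1 CPM 0.146% were lower DEGs, and from 0.1 to 1 CPM 3.73%, the highest share of the 5 levels compared. Genes under 0.1 CPM passed the filter on low counts through other groups, with wild type p53 at 24 h among them. Their share of rises is thus set in part by the filter and is not one of all silent genes. Their level also leaves little room for a fall. Among protein-coding genes 10% were higher and 1.8% lower DEGs, and among long non-coding RNAs 8.8% and 3.25%. The DEGs also lay near each other. For 374 of 1942 higher DEGs with a position (19.3%) the nearest tested gene that did not overlap it was also a higher DEG, while this held for 7.36% of the other genes. In addition, 127 higher DEGs overlapped another on the opposite strand. The library kit keeps the strand, but the strand setting of the authors' counting is not stated, so that reads of such pairs cannot be told apart.

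Over the whole table, the 6 smallest *P* values among rises belonged to *BTG2*, *GDF15*, *ACTA2*, *PANK1*, *HOXC13* and *CDKN1A*. *BTG2* encodes an antiproliferative cofactor of mRNA deadenylation, and went from 2.38, 2.30 and 2.77 CPM to 90.5, 82.3 and 74.5 CPM (log2 fold change 5.05, SE 0.17, adjusted *P* = 1.2e-16). *GDF15*, a secreted stress cytokine of the TGF-beta family, went from 0.828, 0.752 and 0.739 CPM to 33.9, 47.996 and 32.4 CPM (log2 fold change 5.62, SE 0.20, adjusted *P* = 2.4e-16). *CDKN1A* (ENSG00000124762.13, chr6:36676460-36687337, plus strand), the gene of p21, was at 44.9, 50.5 and 49.5 CPM with pGFP and at 547, 793 and 516 CPM with wild type p53. Its rise was 12.8-fold (log2 fold change 3.68, SE 0.17, adjusted *P* = 5.4e-14), highest in replicate 2. The groups did not overlap, which was a condition for all genes ranked here. Smooth muscle actin *ACTA2* rose from 2.91, 3.64 and 3.65 CPM to 103, 83.6 and 63.6 CPM. It overlaps *FAS* on the opposite strand, so part of either count could be the other's. *PANK1*, a pantothenate kinase of coenzyme A synthesis, rose by 3.20 and the homeobox gene *HOXC13* by 2.95 on the log2 scale. *HOXC13* overlaps its antisense RNA *HOXC13-AS*, which also rose.

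Among genes with at least 1 CPM without p53, the 5 largest rises included those of *TP53I11*, *DPYSL4*, *FAM13C* and *BTG2*. *TP53I11*, named as a p53-inducible gene, was at 1.36, 1.07 and 1.15 CPM with pGFP and at 145, 117 and 84.2 CPM with wild type p53, a 96.7-fold rise. It overlaps *TSPAN18* on the opposite strand. *DPYSL4*, of the dihydropyrimidinase-like family, rose 44.4-fold and *FAM13C* 39.4-fold. Only DEGs whose groups did not overlap were ranked, so the separation of these genes was a condition of their choice.

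Most genes that feed back on p53 rose. Of 19 tested, 13 rose and 2 fell, 9 were higher DEGs, and the median change was 0.90 against 0.01 over all genes. *MDM2*, the ubiquitin ligase that marks p53 for degradation, was at 178, 186 and 172 CPM with pGFP and at 1842, 1706 and 1247 CPM with wild type p53 (log2 fold change 3.16, SE 0.16, adjusted *P* = 1.6e-13). Its partner *MDM4* was at 38.1, 36.9 and 36.5 CPM with pGFP and at 40.2, 38.2 and 42.1 CPM with wild type p53, and this small difference did not pass the test (adjusted *P* = 0.49). The AKT inhibitor gene *PHLDA3* went from 0.0267, 0.0911 and 0.0462 CPM, close to no reads, to 7.81, 7.53 and 5.92 CPM. The RNA-binding protein gene *RBM38* (1.58), *CDIP1* (1.72) and *ZNF385A* (2.98) complete the 5 smallest *P* values of the group, given as log2 fold changes. The ubiquitin ligase gene *SIAH1* (-0.37) and the p53 relative *TP73* (-0.60) were the genes that fell.

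The p53-induced arrest genes had a median change of 1.45. Of 19 tested, 14 rose, and 12 of them at least 2-fold. Beside *BTG2* and *CDKN1A*, the polo-like kinase gene *PLK2* rose from 52.3, 53.4 and 58.8 CPM to 452, 329 and 312 CPM and *PLK3* by 1.45 on the log2 scale. *RPRM*, an inducer of G2 arrest, rose by 2.54. *SFN*, the 14-3-3 sigma protein that retains the mitotic kinase in the cytoplasm, rose from 0.320, 0.251 and 0.231 CPM to 1.96, 2.55 and 1.22 CPM. *GPNMB* was the only gene of this group below pGFP that passed the test (log2 fold change -1.19, SE 0.43, adjusted *P* = 0.03), at under 1 CPM in every library, and its call was lost without pGFP replicate 1 or without any one of the wild type libraries.

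Apoptosis genes rose in both branches, and the mitochondrial branch had its sensors and effectors among them. Of 27 genes of intrinsic apoptosis 18 rose, 16 of them at least 2-fold, and 3 fell (median 1.16). *TP53I3*, an oxidoreductase gene tied to reactive oxygen, was at 25.7, 24.5 and 24.7 CPM with pGFP and 376, 402 and 245 CPM with wild type p53. *BBC3* encodes PUMA, a BH3-only protein that neutralises BCL2 proteins, and went from 1.66, 1.89 and 2.42 CPM to 16.7, 20.8 and 14.1 CPM (log2 fold change 3.11, SE 0.18, adjusted *P* = 1.7e-12). The pore former *BAX* rose by 1.56, the apoptosome scaffold *APAF1* by 2.43, the nuclease gene *AEN* by 2.40 and the BH3-only gene *PMAIP1* (NOXA) by 1.16 on the log2 scale, the last by 0.91 without wild type replicate 1. By contrast *CASP9*, the caspase that APAF1 activates, fell from 18.5, 17.6 and 14.8 CPM to 8.84, 11.1 and 10.5 CPM (log2 fold change -0.74, SE 0.12, adjusted *P* = 2.1e-05). *BMF* also fell (-0.64). Prosurvival *BCL2* was at 4.14, 4.58 and 4.96 CPM with pGFP and 4.9999, 4.93 and 4.89 CPM with wild type p53 (adjusted *P* = 0.53).

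On the receptor side 10 of 14 genes rose, 9 of them at least 2-fold, and the median change was 1.61. It was 1.17 over the 12 genes with at least 10 counts in every library. *FAS*, the receptor of FAS ligand, went from 9.64, 11.5 and 11.1 CPM to 70.8, 57.7 and 46.6 CPM. The receptors for TRAIL, *TNFRSF10A*, *TNFRSF10B* and the decoy *TNFRSF10D*, rose by 2.02, 2.04 and 2.02 on the log2 scale. *PIDD1*, a death domain protein that activates caspase-2, went from 12.95, 14.8 and 13.8 CPM to 162, 148 and 114 CPM, and the ectodysplasin receptor gene *EDA2R* from 0.107, 0.159 and 0.0923 CPM to 2.86, 2.62 and 2.05 CPM. No gene of this list fell by the edgeR test used, while 1 did in 6 of the alternatives and 3 did with the replicate number as a block. *EDA2R* was chosen after its values were seen.

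**Figure D2:**
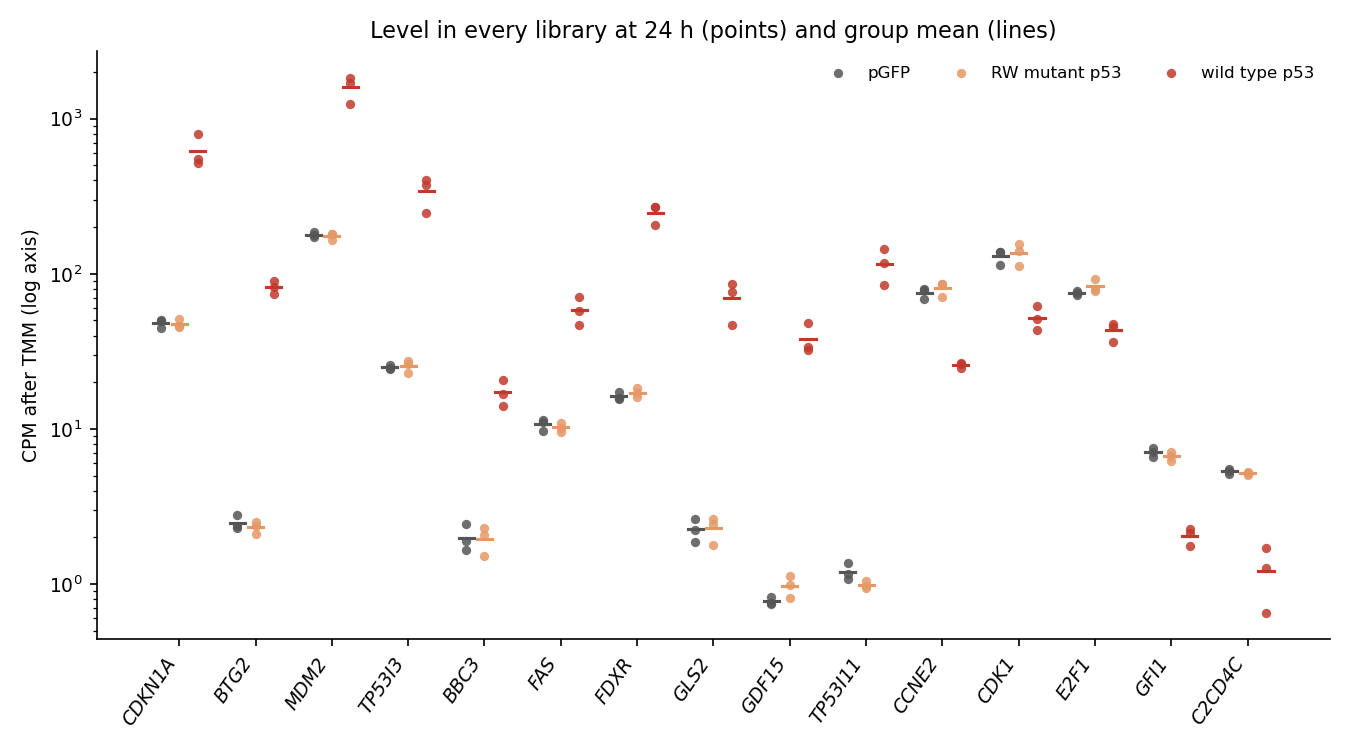
CPM of 15 genes in every 24 h library of pGFP, RW mutant p53 and wild type p53, on a log axis, with a line at each group mean (3 libraries a group). The wild type libraries stand apart from both other groups, as for *CDKN1A* with 516 to 793 CPM against 44.9 to 50.5 CPM with pGFP.

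In p53-linked DNA repair 10 of 18 genes rose and 3 fell (median 0.36). *DDB2* and *XPC*, which recognise damage for nucleotide excision repair, rose by 2.04 and 1.07 on the log2 scale. The ribonucleotide reductase subunit *RRM2B*, which supplies nucleotides outside S phase, went from 90.8, 104 and 88.3 CPM to 269, 282 and 206 CPM. *RPS27L* (1.88) and the helicase gene *ASCC3* (1.23) also rose. Among those lower were *FANCC* (-0.43) and *POLK* (-0.21), the last with a call that was lost in 4 alternatives.

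Of 28 metabolic and autophagy genes 15 rose and the median was 0.31. The 4 that fell are 14.3% of the list, beside 14.5% of all genes. The mitochondrial glutaminase *GLS2*, chosen after its values were seen, was at 2.24, 2.64 and 1.87 CPM with pGFP and 86.4, 76.3 and 46.7 CPM with wild type p53, and the ferredoxin reductase *FDXR* at 15.8, 17.3 and 15.6 CPM and 269, 268 and 206 CPM (log2 fold change 3.93, SE 0.20, adjusted *P* = 1.5e-13). *TIGAR*, which lowers glycolytic flux, rose by 2.19 and the autophagy gene *DRAM1* by 2.41 on the log2 scale. The sestrins, which restrain mTORC1, parted: *SESN1* went from 31.5, 27.3 and 27.9 CPM to 188, 174 and 140.2 CPM, and *SESN3* from 22.3, 19.4 and 15.3 CPM to 9.55, 8.94 and 7.97 CPM. *ULK2*, a kinase that starts autophagy, fell (log2 fold change -0.55, SE 0.08, adjusted *P* = 4.4e-06).

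Of 19 genes for secreted, matrix and cell surface proteins 14 rose and none fell (median 1.17, edgeR's test; none fell in any alternative). The growth factor genes *BMP7* (3.15) and *CSF1* (2.995), the ephrin *EFNB1* (2.47) and the ephrin receptor *EPHA2* (1.87) rose. *COL4A1*, a collagen of basement membrane, was at 0.0267, 0 and 0 CPM with pGFP and at 4.52, 2.49 and 2.10 CPM with wild type p53, at least 41.8-fold higher against a floor of 3 counts per library. *COL4A2*, its neighbour on the chromosome and partner in the protein, had 0, 3 and 1 counts with pGFP and 2, 0 and 4 counts with wild type p53, too few to be tested.

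Among p53-linked long non-coding RNAs 8 of 11 rose (median 1.37). Of the 7 with at least 10 counts in every library 4 rose, and the median of those 7 was 0.30. *MIR34AHG*, the host transcript of miR-34a, went from 0.454, 0.205 and 0.162 CPM to 29.4, 19.2 and 16.7 CPM. *LNCTAM34A*, from the opposite strand of the same region, was at least 37.2-fold higher. The genes overlap, and their reads cannot be told apart here. *PVT1*, the neighbour of *MYC*, rose from 9.94, 12.2 and 13.1 CPM to 42.03, 37.004 and 33.5 CPM.

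The consensus of a p53 site is a pair of half-sites, each with a core of C, a pair of A or T, and G. Genomic sequence within 5000 bases of the RefSeq start was searched for sites of 20 bases without a spacer, with both cores intact and at most 2 of the 12 flanking letters off the consensus. Such a window was available for 12910 tested genes. With no letter off, 7 of 1176 higher DEGs (0.595%) and 22 of all genes (0.17%) had a site. With up to 2 letters off, the shares were 8.93% of higher DEGs, 7.53% of the 239 lower DEGs and 5.22% of all. The sites of the following genes, which rose, are shown in hg38 and read along the strand of the gene, with the cores in capitals. They are matches of letters and no measure of binding. The site of *CDKN1A* at chr6:36676449-36676468 lies 2255 bases before the RefSeq start, that of *BTG2* at chr1:203303642-203303661 1867 bases before, that of *PLK2* at chr5:58462274-58462293 2197 bases before and that of *GDF15* at chr19:18385308-18385327 840 bases before the start. After the start, the site of *FAS* at chr10:88991309-88991328 lies at 521 bases, that of *GLS2* at chr12:56488113-56488132 at 39 bases and that of *ZMAT3* at chr3:179070188-179070207 at 1612 bases. A single site at chr1:9182144-9182163 lies 185 bases after the start of *MIR34AHG* and 50 bases before that of *LNCTAM34A*, and is printed along the latter.
CDKN1A: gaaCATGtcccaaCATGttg
BTG2: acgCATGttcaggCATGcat
PLK2: aaaCATGcctggaCTTGccc
GDF15: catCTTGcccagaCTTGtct
FAS: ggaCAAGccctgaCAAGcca
GLS2: aggCTTGctggggCATGcgc
ZMAT3: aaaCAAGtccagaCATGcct
LNCTAM34A: gaaCAAGcccaggCAAGccc
The sites of *PLK2*, *ZMAT3* and *LNCTAM34A* have no letter off the consensus and the other 5 have 2 letters off. With no letter off, the log2 fold changes were 2.73 for *PLK2*, 1.87 for *ZMAT3* and 6.27 for *LNCTAM34A* (fitted, not a bound). *MIR34AHG*, which shares the site of *LNCTAM34A*, had 6.34. With 2 letters off they were 5.62 for *GDF15*, 5.05 for *BTG2*, 4.95 for *GLS2*, 3.68 for *CDKN1A* and 2.44 for *FAS*. These genes were picked for display, *ZMAT3* after its values were seen.

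Falls with wild type p53 were many and small, and most genes of cell division were among them. Of 51 genes of G2/M and mitosis 44 fell, 6 of them at least 2-fold, and 2 rose, with a median change of -0.58. The share that fell is 86.3% against 14.5% of all genes. *CDK1*, the kinase that starts mitosis, was at 139, 138 and 114 CPM with pGFP and at 43.4, 61.9 and 51.1 CPM with wild type p53 (log2 fold change -1.32, SE 0.15, adjusted *P* = 1.4e-07). The condensin gene *NCAPH* fell from 69.9, 72.4 and 67.5 CPM to 26.7, 35.01 and 39.9 CPM and the kinesin gene *KIF18A* from 64.7, 69.7 and 66.8 CPM to 23.4, 33.6 and 39.1 CPM, with replicate 1 lowest in both. *KIF24* (-0.98) and the spindle protein gene *CCSAP* (-1.005) had the smallest *P* values of the list. *CCSAP*, *NCAPH* and *KIF18A* were past 2-fold by little, and reached -0.95, -0.94 and -0.93 on the log2 scale without wild type replicate 1. Cyclin B1, *CCNB1* (log2 fold change -0.36, SE 0.14, adjusted *P* = 0.045), and *PLK1* (log2 fold change -0.36, SE 0.13, adjusted *P* = 0.035) had groups that overlapped and lost their calls in 6 and 5 alternatives. *BUB3* (0.54) and *PTTG1* (0.29) were higher, and *CDC20* was at 213, 258 and 284 CPM and 234, 259 and 327 CPM (adjusted *P* = 0.56). Without wild type replicate 1 the list had 35 falls.

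Genes of the G1/S transition and replication fell as well, by less. Of 41, 27 fell, 4 rose and the median was -0.37. *CCNE2*, a cyclin that drives entry into S phase, had the smallest *P* of all falls in the table and went from 78.7, 79.2 and 68.7 CPM to 26.1, 24.6 and 26.7 CPM, a 2.93-fold fall (log2 fold change -1.55, SE 0.11, adjusted *P* = 3.3e-11). *FBXO5*, an inhibitor of the anaphase-promoting complex, fell by 1.07 on the log2 scale, and the phosphatase gene *CDC25A* by 0.74. The 4 that rose were the replication factor *GINS4* (0.45), thymidylate synthase *TYMS* (0.36), *RRM1* (0.23) and cyclin D1, *CCND1* (0.40). The groups of *CCND1* overlapped. Its call was lost in 9 alternatives, that of *RRM1* in 7 and that of *TYMS* in 3, and 1 rise was left without pGFP replicate 1.

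Regulators of these genes were among both rises and falls. Among 21 genes of the E2F family, RB family and DREAM complex 8 fell, 6 rose and none reached 2-fold (median -0.20). The counts were 3 rises and 11 falls without a filter on low counts, 8 and 11 with the replicate number as a block, and 4 rises without wild type replicate 1 or 2. The activator *E2F1* fell from 74.9, 77.8 and 73.5 CPM to 36.5, 45.7 and 47.7 CPM (log2 fold change -0.80, SE 0.09, adjusted *P* = 1.6e-07), and the atypical family member *E2F8* by 0.99 and the pocket protein gene *RBL1* by 0.70 on the log2 scale. *DYRK1A*, the kinase that helps assemble DREAM, also fell (-0.60). The pocket protein gene *RB1* rose from 87.97, 98.1 and 89.96 CPM to 180.4, 159.7 and 141 CPM.

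Most genes of homologous recombination fell. Of 34 genes of homologous recombination and the Fanconi pathway 22 fell, 4 rose and none was a DEG (median -0.46). *BRCA2* went from 84.8, 81.6 and 76.4 CPM to 36.2, 43.9 and 47.2 CPM (log2 fold change -0.93, SE 0.10, adjusted *P* = 4.6e-08), *RAD51AP1* changed by -0.88 and the helicase gene *BLM* by -0.57, whereas *RAD51C* rose (0.41). Of 16 damage-signalling kinases and mediators 9 fell, among them *CHEK1* (-0.55) and *TP53BP1* (-0.49), and 7 to 9 fell with single libraries left out. *WEE1*, the kinase that inhibits CDK1, rose from 33.1, 34.3 and 32.5 CPM to 78.9, 59.8 and 61.03 CPM, just under 2-fold.

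Replication-dependent histone RNAs, a group chosen after its values were seen, lack poly(A) tails and are kept by this total RNA protocol. Of 55 histone genes 33 fell, 14 at least 2-fold, and none rose by edgeR's test (median -0.73). Their share of all counts was 0.249% ± 0.073 (SD, n = 3) with wild type p53 and 0.456% ± 0.066 (SD, n = 3) with pGFP. The groups did not overlap, which gives the smallest two-sided exact permutation *P* that 3 against 3 libraries allow, 0.1. *H3C12* went from 60.8, 85.3 and 85.2 CPM to 12.1, 37.9 and 34.3 CPM, lowest in replicate 1. Only 17 of these genes fell without wild type replicate 1, and also 17 without pGFP replicate 2, while 48 fell with the replicate number as a block.

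The promoters of the genes that fell were read for the motifs of these programmes. The window ran from 250 bases before to 50 bases after the RefSeq start (GRCh38.p14). The CHR element was searched as TTTGAA or TTCGAA on both strands. It was in 32 of 45 promoters of the G2/M list (71.1%) and in 11.5% of all 12910 promoters. Of the 40 genes with a promoter that fell 31 had it, and of the 5 that did not fall 1 had it. Among all lower DEGs the share was 18.4% and among higher DEGs 11.7%. The E2F motif was searched as TTTCCCGC, TTTGGCGC or TTCCCGCC on both strands (the first and the last can share letters). It was in 60.6% of the 33 promoters of the G1/S list and in 7.1% of all. Among lower DEGs its share was 6.69%, and among genes that fell at any fold 9.83%. CCAAT, the box bound by NF-Y, was in 68.9% of G2/M promoters and 36.1% of all. Lower DEGs had it in 36.4%, and genes that fell at any fold in 42.2%. p53 half-sites were in 7.48% of the promoters of higher DEGs, 2.51% of those of lower DEGs and 5.32% of all. A motif in a window is a description and no measure of what binds there. To show how the element lies, the 100 bases before the start of 4 genes that fell are given from RefSeq, along the strand of the gene and with CHR elements in capitals: *KIF18A* (chr11:28108157-28108256, minus strand, -1.06), *ANLN* (chr7:36389762-36389861, plus strand, -0.66), *HMMR* (chr5:163460532-163460631, plus strand, -0.54) and *CCNB2* (chr15:59105046-59105145, plus strand, -0.50).
KIF18A: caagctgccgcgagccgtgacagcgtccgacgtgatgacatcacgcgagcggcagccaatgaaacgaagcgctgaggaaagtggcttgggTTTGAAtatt
ANLN: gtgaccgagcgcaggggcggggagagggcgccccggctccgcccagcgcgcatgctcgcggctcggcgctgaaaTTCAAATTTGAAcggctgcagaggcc
HMMR: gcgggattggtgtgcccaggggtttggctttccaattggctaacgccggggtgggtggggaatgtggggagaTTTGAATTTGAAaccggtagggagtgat
CCNB2: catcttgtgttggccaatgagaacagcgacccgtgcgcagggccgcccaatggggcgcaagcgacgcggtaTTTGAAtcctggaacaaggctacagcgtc
The element lies between 10 and 29 bases before the start in these genes, and *ANLN* and *HMMR* hold a pair of adjacent elements, inverted in *ANLN* and in the same orientation in *HMMR*. *ANLN*, a scaffold of cytokinesis, fell from 437, 447 and 435 CPM to 238, 276 and 319 CPM. *HMMR* encodes a spindle protein and *CCNB2* cyclin B2, and both fell (edgeR, adjusted *P* = 0.0006 and 0.00087). These 4 genes were chosen after their values were seen.

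Among lower DEGs, those with the smallest *P* outside the cycle lists were *FAM111B*, *TPBG*, *PLXND1*, *ARAP2* and *GPR19*. *FAM111B*, a protease gene, went from 61.6, 66.7 and 61.6 CPM to 26.03, 29.6 and 30.6 CPM, and the membrane glycoprotein gene *TPBG* from 66.8, 64.5 and 64.8 CPM to 26.2, 32.05 and 34.05 CPM. The semaphorin receptor gene *PLXND1* fell from 33.4, 25.2 and 28.4 CPM to 12.2, 12.1 and 10.8 CPM (log2 fold change -1.31, SE 0.11, adjusted *P* = 4.7e-10). Separation of the groups was again a condition for being ranked here. Of the 34 genes that the paper mentions with its RNA-seq data, 18 rose and 16 fell, but they were chosen on these same samples. By size, the largest falls with at least 1 CPM left were *C2CD4C*, *GFI1*, *RAB9B*, *CCNE2* and *GPER1*. *C2CD4C* went from 5.56, 5.38 and 5.15 CPM to 0.653, 1.71 and 1.26 CPM (log2 fold change -2.13, SE 0.23, adjusted *P* = 3.3e-08). *GFI1*, a transcriptional repressor of blood cell development, went from 7.50, 7.13 and 6.60 CPM to 1.76, 2.25 and 2.12 CPM.

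Developmental signalling genes showed large changes in both directions. Of 31 genes of the Wnt, NOTCH and receptor tyrosine kinase families 11 rose, 6 fell, 7 were higher and 4 lower DEGs (median 0.15). *JAG2*, a NOTCH ligand, went from 22.01, 26.2 and 25.9 CPM to 289, 284 and 215 CPM, and the receptor *NOTCH1* rose by 1.40 on the log2 scale. The ligand gene *WNT4* went from 0.374, 0.182 and 0.185 CPM to 10.8, 9.46 and 5.73 CPM. *WNT7A* had no read in any pGFP library and 1.28, 1.15 and 1.05 CPM with wild type p53, at least 16-fold higher. The insulin-like growth factor receptor *IGF1R* rose by 1.75. The 4 lower DEGs were the NOTCH ligand *DLL4* (-1.63) and *LEF1*, *AXIN2* and *NKD1*. LEF1 is a nuclear effector of Wnt signalling, and AXIN2 and NKD1 are its feedback inhibitors. *LEF1* fell from 7.24, 4.49 and 5.36 CPM to 2.64, 1.95 and 2.17 CPM and *AXIN2* from 6.22, 4.94 and 5.33 CPM to 2.54, 2.12 and 2.67 CPM.

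Innate immune genes rose in part. Of 29 interferon-stimulated and sensing genes 12 rose, 5 of them at least 2-fold, and *IFI27* fell (log2 fold change -0.88, SE 0.24, adjusted *P* = 0.0044, lost without pGFP replicate 1). The rises numbered 8 without wild type replicate 1, without pGFP replicate 2 or with only the 24 h libraries. They numbered 15 with the replicate number as a block. Against RW mutant p53, 9 genes of the list were higher. The transcription factor *IRF1* went from 14.2, 13.1 and 13.9 CPM to 68.6, 50.9 and 46.5 CPM and *IRF5* from 3.50, 3.05 and 2.59 CPM to 20.3, 17.3 and 11.3 CPM. *IFIH1*, the RNA sensor MDA5, rose by 1.22 on the log2 scale, and by 0.90 without wild type replicate 1. *IFNB1* had no count in any of the 6 libraries. Among 5 tested *APOBEC3* cytidine deaminases, *APOBEC3C* rose from 15.6, 19.6 and 17.9 CPM to 67.9, 67.7 and 52.04 CPM. *APOBEC3H* rose too, from no read to 0.176, 0.130 and 0.0477 CPM, at least 1.62-fold higher against 3 counts per library.

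Other groups moved less. Of 23 immediate early genes 9 rose, led by *EGR2*, which went from 0.855, 0.615 and 0.369 CPM to 37.01, 27.5 and 18.5 CPM, with *NR4A1* (1.65) and *ARC* (1.997). Its relative *EGR1* was at 211, 182 and 175 CPM and 275, 187 and 174 CPM (adjusted *P* = 0.58). Of 20 genes of the ATF4 and unfolded protein responses 7 rose, all under 2-fold, among them *PSAT1* (0.44) and *CHAC1* (0.86). Of 44 cytosolic ribosomal protein genes 9 rose by small amounts, such as *RPS19* (0.37). In the fit without the block this is 20.5% of the list, beside 20.5% of all genes. With the replicate number as a block 24 of the 44 rose, where 5418 of the 21335 genes tested did. Without wild type replicate 1 the rises numbered 2. All 3 wild type libraries were above all 3 pGFP libraries for 25 of the 44, and for 23.9% of all genes. Every fitted change in the list was positive, the lowest 0.0325 on the log2 scale. Cholesterol and fatty acid synthesis had 4 rises and 6 falls among 26 genes, with 1 rise left without wild type replicate 2 and 3 falls left without pGFP replicate 2. These are 15.4% and 23.1% of the list, beside 20.5% and 14.5% of all genes.

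RW mutant p53 has an amino acid change in the DNA binding domain, and the paper reports lower DNA binding for it. Against pGFP it changed 1 gene (0.00469%) by edgeR's test, also 1 by DESeq2, with 208 genes at an unadjusted *P* under 0.05. Against wild type p53, 2440 DEGs were found (11.4% of genes), 2032 higher (9.52%) and 408 lower (1.91%) with wild type. That comparison uses the same wild type libraries, so it is not independent of the one with pGFP. *CDKN1A* was at 46.1, 50.8 and 45.1 CPM with RW mutant p53, *BTG2* at 2.38, 2.51 and 2.10 CPM and *CDK1* at 141, 155 and 112 CPM. The log2 fold changes of wild type against RW mutant p53 were 3.71, 5.14 and -1.38, beside 3.68, 5.05 and -1.32 against pGFP. The median of the G2/M list was -0.55 against RW mutant p53 and -0.58 against pGFP.

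The 6 h groups, which share no library with those at 24 h, show how much of the response was there early. At 6 h wild type p53 gave 937 higher and 20 lower DEGs (4.39% and 0.0937%). Of the higher DEGs, 861 were shared, which is 43.8% of those at 24 h and 91.9% of those at 6 h. Of the lower DEGs 5 were shared, 1.18% of those at 24 h and 25% of those at 6 h. The count of lower DEGs at 6 h was not stable: it was 45 with the replicate number as a block and 5 with at least 10 counts in every library. It was 12 without wild type replicate 1 of 6 h, 13 without pGFP replicate 3 and 31 without wild type replicate 3. The effect itself differed between the times for 293 genes (1.37%; adjusted *P* under 0.05 and at least 2-fold in edgeR's test of the difference), with 214 more positive (1%) and 79 more negative (0.37%) at 24 h. With the replicate number as a block 521 genes differed, and without wild type replicate 1 of 24 h 195.

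Arrest genes were near their 24 h change already at 6 h (median 1.18 against 1.45), and *BTG2* had a log2 fold change of 5.42 at 6 h and 5.05 at 24 h. *CDKN1A* went further, by 1.01 (adjusted *P* = 0.0061). Medians grew from 0.68 to 1.16 for intrinsic apoptosis and from 0.46 to 1.17 for secreted proteins. The G2/M list had a median of -0.03 at 6 h with 1 fall, where 1.59% of all genes fell. For 22 of its 51 genes the effect was lower at 24 h by the test of the difference, which held for 2.77% of all genes. For *CDK1* the log2 fold change was -0.08 at 6 h and -1.32 at 24 h (difference -1.24, adjusted *P* = 0.00097), and for *CCNE2* it was -0.44 and -1.55. Genes with the smallest *P* for a larger effect at 24 h were *LIMA1*, a regulator of actin bundles (0.51 and 2.02), *DISP1* (-0.10 and 1.46), *TSPAN5* (0.44 and 1.44) and the lipid flippase *ATP8B1* (0.39 and 2.22). In the other direction they were *TMTC2* (0.09 and -0.83), *PLXND1* (0.10 and -1.31), *ARAP2* (-0.08 and -1.11) and *USP11* (0.08 and -0.62).

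**Figure D3:**
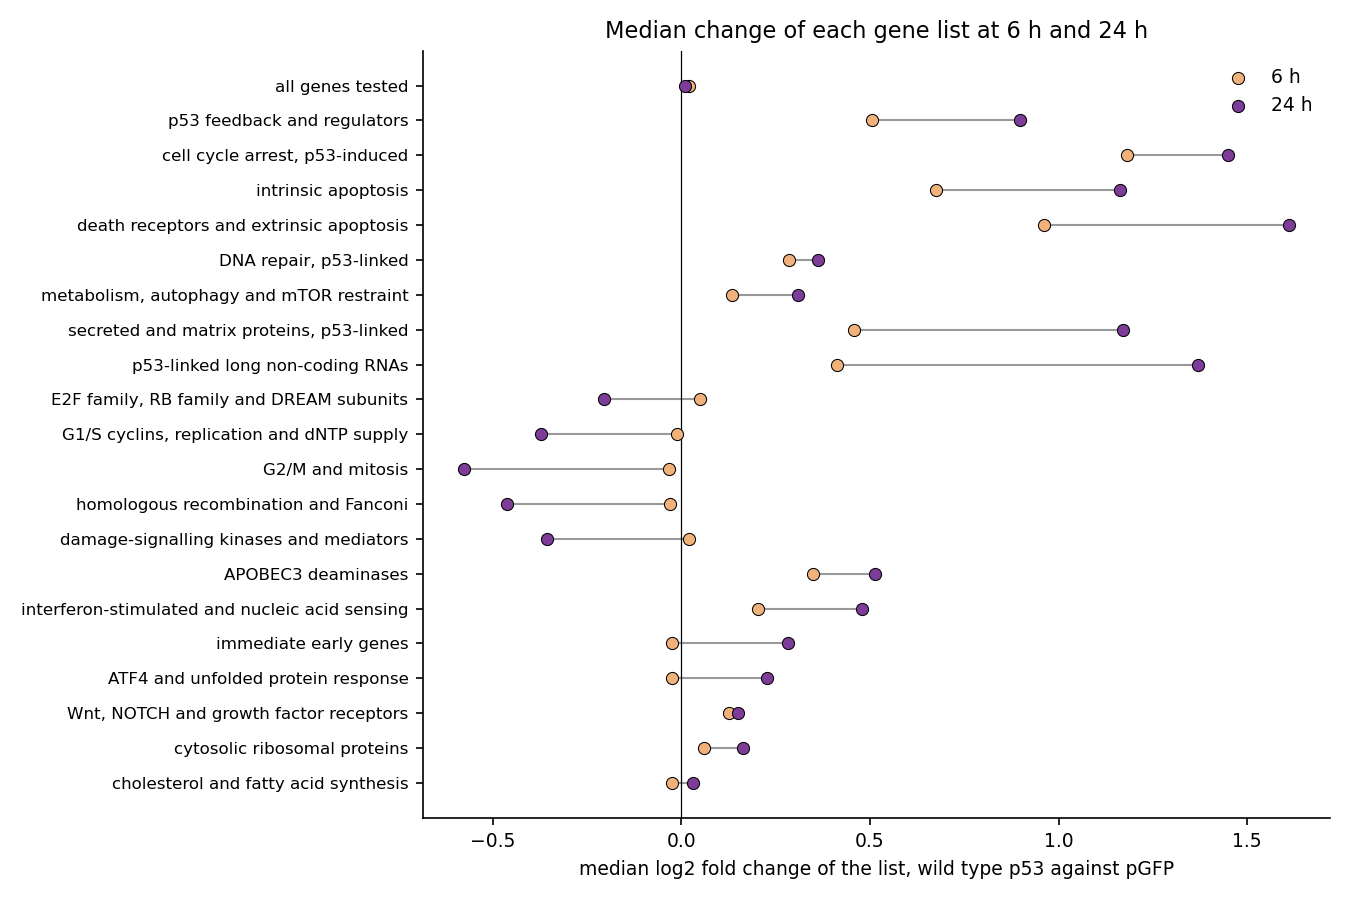
Median log2 fold change of wild type p53 against pGFP for 20 gene lists and for all genes tested, at 6 h (orange) and 24 h (purple). The arrest list moves from 1.18 to 1.45, whereas the G2/M list goes from -0.03 to -0.58.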

How the data were processed

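Total RNA of sorted H1299 cells was depleted of ribosomal RNA, and libraries were sequenced as single reads. The deposited table holds unnormalised counts for each gene. The authors aligned reads to hg38 with STAR 2.5.3a and counted them on GENCODE genes with featureCounts of Subread 1.5.2, with no strand setting given. The table holds 39359 genes, of which 38904 were matched to GENCODE v44 for positions. A deposited table of normalised values was not used here.

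Samples were grouped by their labels. Counts were fitted in R 4.3.3 with edgeR 4.0.16 over 28 libraries in 10 groups. Left out were 2 libraries of 6 h, replicate 2 of p53 *O*6-meG and of p53 TM, whose titles contradict themselves. The filter was filterByExpr, the scaling TMM and the test the quasi-likelihood test, with Benjamini-Hochberg adjustment. Scripts were tested on simulated data. Replicates are biological triplicates per the paper's methods. No library duplicated another of its group.

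The labels number the replicates 1 to 3 in each group. At 24 h the residuals were compared between libraries of different groups. All 30 pairs with the same number correlated above 0.1 (0.182 to 0.612), including the 3 pairs of wild type p53 and pGFP. The 60 pairs with different numbers ranged from -0.495 to 0.234, with 9 above 0.1. The numbers were taken to pair the libraries, and a fit with the replicate block was run as an alternative. Adjusted *P* values and counts are from edgeR's fit without the block unless stated. Alternatives were DESeq2's size factors, no filter, at least 10 counts in every library, DESeq2 1.42.0, all 30 libraries, the 24 h libraries only, the groups compared only, the replicate block and each library left out. Where a group is left with 2 libraries, the spread is pooled over groups.

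The gene lists and the comparison were chosen with earlier results of these data known. Named genes are genes that the paper mentions with its RNA-seq data, up to 5 members of a list with the smallest *P* in each direction, the 6 smallest *P* values and 5 largest changes of each direction over all DEGs without overlap of the groups (the latter with at least 1 CPM in the lower group), and the 4 smallest *P* values for the difference between times in each direction. Named outside this rule, after their values were seen, were *EDA2R*, *GLS2*, *KIF18A*, *ANLN*, *HMMR*, *CCNB2*, *CCNB1*, *PLK1*, *ZMAT3*, *H3C12*, *COL4A2* and *HOXC13-AS*. Some genes that the rule reaches are not reported here. Of 134 tested genes in the text, 43 overlap a tested gene on the opposite strand. Promoters and starts are from RefSeq, and the genome sequence is hg38.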

Additional observations from a re-analysis of the deposited data

Results flagged for a closer look

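The effect of wild type p53 differed between 24 h and 6 h, by edgeR's test of the difference with Benjamini-Hochberg adjustment and at least 2-fold, for 293 of 21335 genes. Of the genes examined singly, *CDKN1A* (1.01), *RPRM* (1.14), *PIDD1* (1.08), *EFNB1* (1.11), *CSF1* (1.01), *BMP7* (2.89), *PVT1* (1.22), *NR4A1* (1.29), *IGF1R* (1.22), *ACTA2* (1.38), *LIMA1* (1.51), *DISP1* (1.57) and *ATP8B1* (1.82) had the more positive effect at 24 h. *CCNE2* (-1.11), *CDK1* (-1.24), *LEF1* (-1.47), *NKD1* (-1.36), *PLXND1* (-1.42), *ARAP2* (-1.04), *GPR19* (-1.07), *C2CD4C* (-1.72), *GFI1* (-1.25), *RAB9B* (-1.42), *GPER1* (-1.07) and *CA2* (-1.09) had the more negative effect at 24 h. Each value is the log2 fold change at 24 h minus that at 6 h.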

How the results depend on the processing

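The count of DEGs, 2392, stayed within 1.5 times under every alternative but 1: a filter of 10 or more counts in each library left 1210 DEGs (1038 higher and 172 lower), since 15410 genes were then tested and genes silent with pGFP drop out. The same filter left 1210 DEGs against RW mutant p53 in place of 2440. When single libraries were left out, the DEGs numbered 2066 to 2545 against pGFP and 2006 to 2558 against RW mutant p53, the genes changed at any fold 6437 to 7139, and the genes that differed between times 195 to 408. Without pGFP replicate 1 the lower DEGs numbered 282 in place of 425. Without wild type replicate 1 the higher DEGs numbered 1565 and the lower 501. The replicate block gave 2580 DEGs, 9718 genes changed at any fold in place of 7467, and 521 genes that differed between times in place of 293. It ended no call of a gene named above. DESeq2's Wald test gave 2274 DEGs, a fit of only the 2 groups 2026. Of 134 genes in the text and 1857 refits, 1808 kept direction and call, 47 lost the call and 2 changed sign: *CDC20*, between -0.028 (without wild type replicate 3) and 0.22, and *EGR1*, between -0.11 (without wild type replicate 1) and 0.29 with single libraries left out. Neither had passed the test. Depth limits what can be tested: 21335 of the 39359 genes in the table passed the filter on low counts.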
